A study of Arabidopsis thaliana with 9 samples.

Results

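Among 27655 loci measured in whole Arabidopsis thaliana seedlings, 83 were higher in the G34W line and stayed near the wild-type level in the G34R line, and these 83 are described here. A locus was a member when its mean over all 9 libraries was at least 2 TPM (the authors' unit of transcript abundance, a share of the library per gene length), its mean in G34W was at least 1.8 times the wild-type mean, and its mean in G34R was no more than 20% under or 25% over the wild-type mean. FT and LBD41 were left out by name, and neither met these bounds, with G34R ratios of 1.27 and 1.40. The members were thus chosen by the measured levels of all 9 libraries, so their levels are a description and no test is given for them. There were 3 libraries of wild-type Col plants, 3 of the line labelled h3.3ko;HTR5 G34R and 3 of the line labelled h3.3ko;HTR5 G34W. Seedlings were 10 days old and grew at 22 °C in days of 16 h light and 8 h dark. The labels name the same h3.3ko background for both lines. By the usual notation, a glycine of the HTR5 protein is replaced by arginine in G34R and by tryptophan in G34W. Plants of the same background with normal HTR5 were not analysed here, so in a difference from wild type the background and the substitution cannot be told apart. The labels do not say how many independent plant lines stand behind each genotype, nor whether the replicates were planted apart. The p-values therefore reflect no more than the spread among these samples, and it may be technical.

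The histone variant H3.3 is placed on DNA outside replication, mostly over transcribed genes, and in Arabidopsis HTR4, HTR5 and HTR8 encode it. The exchanged glycine lies near lysine 36 in the histone tail, whose methylation marks the bodies of active genes in plants. Exchanges of this glycine are known from human bone and brain tumours, where different replacements occur in different tumour types. HTR8 was at 207 to 214 TPM in wild type, at 3.92 to 5.86 TPM in G34R and at 4.65 to 6.69 TPM in G34W, so both lines lay far below wild type in this gene. HTR4 was at 408 to 438 TPM in wild type, 132 to 137 TPM in G34R and 152 to 165 TPM in G34W, so reads of HTR4 remained in both lines, and HTR5 at 331 to 335, 353 to 360 and 368 to 390 TPM. The 3 genes encode the same protein and can exchange reads.

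The rule picked a small part of what was higher in G34W. Of the 17126 loci with a mean of at least 2 TPM, 1590 (9.28%) reached 1.8 times the wild-type mean in G34W. Of these 1590, 1059 reached 1.8 in G34R as well, and 83 (5.22%) had a G34R mean within the bounds. With the lines exchanged the same rule gave 61 loci. The median ratio of G34W to wild type was 1.97 over the members and 1.17 over all 17126 loci, and that of G34R to wild type was 1.05 and 1.08. The ratios thus sit on a general shift: a TPM is a share of a library's total, and the median locus was 0.22 higher in G34W and 0.11 higher in G34R on the log2 scale. When each library was rescaled by the median of its ratios to a common reference (median-ratio scaling), 33 of the 83 members still reached 1.8 and the lowest member stood at 1.54 times wild type. Recovered reads numbered 12889624 to 14730745 a library, so that 3 reads over 1 kb were worth 0.422 to 0.495 TPM.

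**Figure D1:**
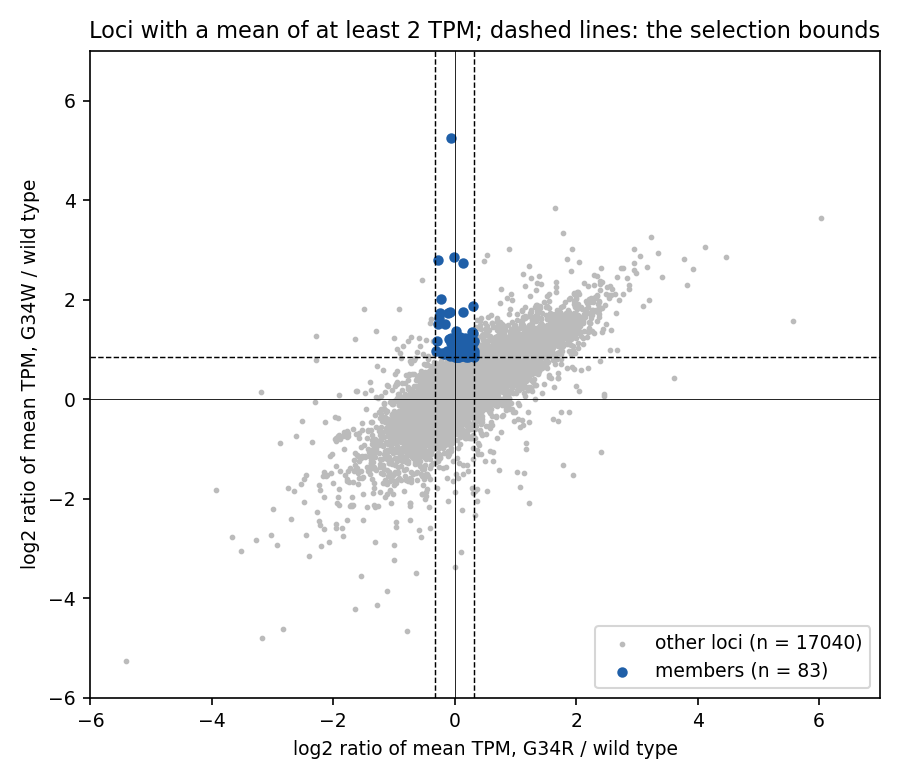
Log2 ratio of mean TPM to wild type in G34R (horizontal axis) and in G34W (vertical axis) for loci with a mean of at least 2 TPM, with the 83 members in blue, other loci in grey and the bounds of the rule as dashed lines. Most grey loci lie along the diagonal, and the member farthest from it is AT1G53200, 37.9 times the wild-type level in G34W and 0.96 times in G34R.

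AT1G53200 stood far from every other member. RefSeq names it TAF RNA polymerase I subunit A, and the human protein of that name belongs to a complex that places RNA polymerase I at the ribosomal RNA genes. The gene lies on the minus strand at chr1:19840368-19843499 in the TAIR10.1 assembly and has 8 exons. Its level was 5.38, 5.32 and 5.89 TPM in wild type, 4.85, 5.23 and 5.88 TPM in G34R, and 215, 210 and 204 TPM in G34W. The G34W libraries lay far above the 6 others, and the wild-type and G34R libraries overlapped. The wild-type levels rested on 105, 101 and 121 reads, those of G34R on 108, 111 and 124 reads, and those of G34W on 4494, 4127 and 4178 reads. The ratio of G34W to wild type was 37.9, and 32.5 with median-ratio scaling, against 7.25 for the member next in order. The 300 bases before its start, given 5′ to 3′ on the gene's strand (TAIR10.1, chr1:19843500-19843799, minus strand), are shown because no other member comes near its ratio. Capitals mark a W-box core, TTGACC, the sequence that WRKY factors recognise.

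AT1G53200: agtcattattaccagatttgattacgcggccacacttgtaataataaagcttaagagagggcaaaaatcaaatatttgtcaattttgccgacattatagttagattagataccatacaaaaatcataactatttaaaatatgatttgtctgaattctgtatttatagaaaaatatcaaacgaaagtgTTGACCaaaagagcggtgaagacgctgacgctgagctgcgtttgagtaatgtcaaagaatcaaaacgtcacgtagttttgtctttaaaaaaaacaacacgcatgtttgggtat

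The genes around AT1G53200 did not follow it. AT1G53190, a RING-type protein gene on the opposite strand whose end overlaps that of AT1G53200 by 3 bases, had means of 26.1 ± 1.74, 24.2 ± 1.17 and 21.5 ± 1.53 TPM in wild type, G34R and G34W (SD, n = 3). AT1G53210, which begins 950 bases away and encodes a sodium/calcium exchanger family protein, was at 170 ± 6.07, 211 ± 6.97 and 170 ± 1.42 TPM. Among the 5 neighbours on each side the ratio of G34W to wild type ranged from 0.48 to 1.40, the lowest for AT1G53260, which had 0 to 3 reads a library. None of these 10 neighbours reached the ratio of 1.8. AT1G53200 and AT1G53210 are transcribed away from each other.

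**Figure D2:**
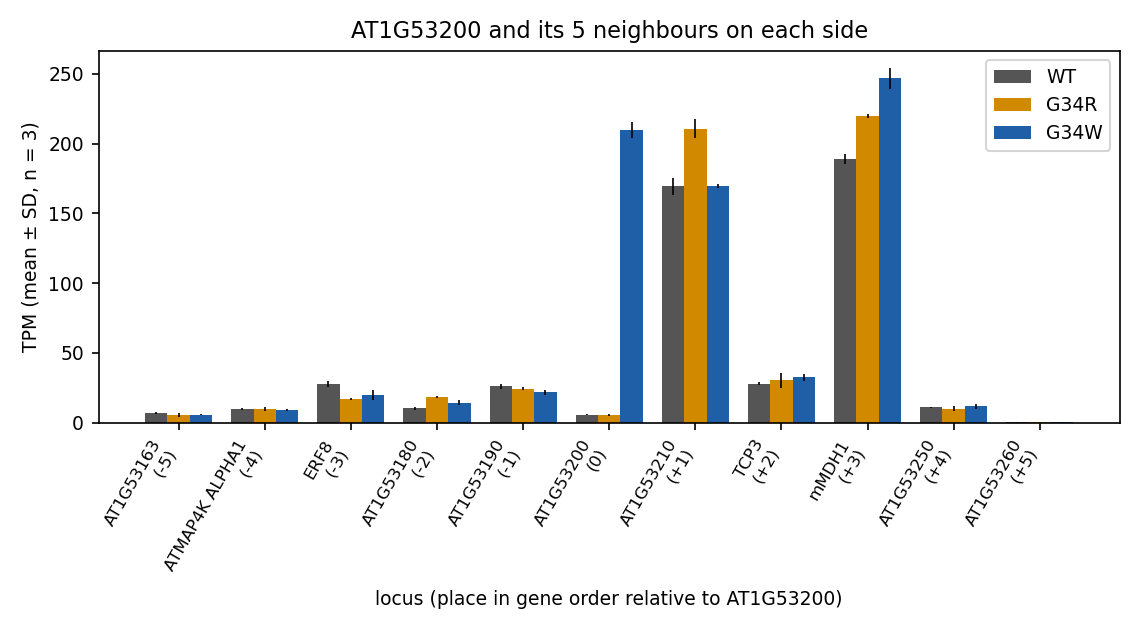
Mean TPM ± SD (n = 3 libraries) of AT1G53200 and the 5 loci on each side of it in gene order, in wild type (grey), G34R (orange) and G34W (blue). AT1G53200 is at 5.53 TPM in wild type and 210 TPM in G34W, while its neighbours keep ratios of 0.48 to 1.40.

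The 5 other members placed in the role group of RNA polymerase I, ribosome and nucleolus were much closer to wild type. The role groups used from here on were formed after the values were seen. AT2G32220, a ribosomal L27e family protein, was at 9.94, 13.98 and 9.94 TPM in wild type, 16.1, 12.3 and 12.3 TPM in G34R and 24.7, 23.1 and 29.6 TPM in G34W. AT3G05060, a NOP56-like protein of the kind that modifies ribosomal RNA in the nucleolus, was at 34.8 to 37.7 TPM in wild type, 35.1 to 38.8 TPM in G34R and 63.5 to 66.0 TPM in G34W. In both the G34W libraries were the 3 highest and the other groups overlapped. RPSAb, a protein of the small ribosomal subunit, had a ratio of 1.805. AT4G38020, an RNA methyltransferase family protein, and AT5G16200, annotated as a 50S ribosomal protein-like protein, had ratios of 1.88 and 1.97. Their names alone place neither in the nucleolus.

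Members with known roles in low oxygen or ethylene signalling form a group of 4, HRA1, HRE1, ETR2 and ACS11, and AT4G10270, which has no assigned role, is described with them. When oxygen falls, plant cells stabilise ethylene response factors of group VII, which switch on genes of fermentation and oxygen sensing, and ethylene trapped in flooded tissue primes this response. AT4G10270, a wound-responsive family gene known to be induced by low oxygen in Arabidopsis, is a gene of 1 exon at chr4:6374734-6375210 on the plus strand of TAIR10.1. It was at 1.35, 1.73 and 0.96 TPM in wild type, 1.48, 0.93 and 0.93 TPM in G34R and 8.81, 11.03 and 8.33 TPM in G34W. The G34W libraries lay apart from the 6 others, but the counts were small, 3 to 5 reads in each wild-type and G34R library and 26 to 33 in each G34W library. Its ratio was 6.98, and 2 loci on the opposite strand, AT4G05775 and AT4G10280, overlap it, so reads could come from either. The 300 bases before its start (TAIR10.1, chr4:6374434-6374733, plus strand) are shown, as for the other 3 members with ratios over 6. Capitals mark 2 places with a relaxed form of the hypoxia-responsive promoter element, searched as AAACCA, any 3 bases and GC.

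AT4G10270: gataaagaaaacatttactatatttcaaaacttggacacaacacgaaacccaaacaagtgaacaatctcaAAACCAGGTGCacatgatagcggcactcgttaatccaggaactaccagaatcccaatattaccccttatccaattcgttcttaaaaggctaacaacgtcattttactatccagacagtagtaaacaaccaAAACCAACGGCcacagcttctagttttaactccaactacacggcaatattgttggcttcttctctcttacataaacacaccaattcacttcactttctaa

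Within 500 bases before the start, on either strand, 1 of 81 members with a promoter in the assembly held this element (1.23%), AT4G10270 itself, against 294 of 17065 loci with a mean of at least 2 TPM (1.72%). At least 2 matches were found in 4 of the 17065 loci (0.0234%). The element was chosen after the values were seen, so nothing is read from this share. A match is a description of the letters and not evidence of binding.

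HRA1, HRE1 and ETR2 were the 3 members on a list of 17 low oxygen response genes. HRA1, a trihelix factor that restrains the low oxygen response, was at 2.94, 2.79 and 2.502 TPM in wild type, 2.31, 1.78 and 2.72 TPM in G34R and 7.38, 7.46 and 8.63 TPM in G34W. HRE1, an ethylene response factor of group VII, was at 3.66, 2.20 and 3.12 TPM in wild type, 2.76, 3.36 and 2.80 TPM in G34R and 5.77, 7.14 and 6.604 TPM in G34W. ETR2, an ethylene receptor, was at 1.06, 0.89 and 1.60 TPM in wild type, 1.01, 1.64 and 1.249 TPM in G34R and 3.78, 3.54 and 4.68 TPM in G34W. For each of the 3 genes every G34W library lay above the 6 others and the wild-type and G34R libraries overlapped. The ratios of G34W to wild type were 2.85 for HRA1, 2.17 for HRE1 and 3.38 for ETR2. HRE1 overlaps AT1G72370 on the opposite strand, so its reads could be shared. ACS11, which makes the precursor of ethylene, was at 5.46 to 8.75 TPM in wild type, 5.71 to 6.03 TPM in G34R and 11.8 to 13.5 TPM in G34W, again with the G34W libraries apart.

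The other 14 genes of the list, none of them a member, give the 3 members their setting. Of these, 10 had a mean of at least 1 TPM and were tested with limma on log2(TPM + 1) over all 18544 such loci. In G34W against wild type 5 of the 10 rose, none fell and 5 stayed short of the threshold, with a median log2 change of 0.35 against 0.21 over all loci tested, of which 44.8% were called higher. In G34R against wild type 6 of the 10 rose and none fell, the median was 0.45 against 0.10, and 34.6% of all loci were called higher. With median-ratio scaling 4 rose and 1 fell in G34W and 5 rose and 1 fell in G34R, and in G34R 4 rose with quantile normalization. With HRA1, HRE1 and ETR2 counted in, 8 of 13 rose in G34W and 6 of 13 in G34R, with median log2 changes of 0.92 and 0.27. Leaving the 3 out removes genes that the rule chose as higher in G34W and near wild type in G34R. The contrast of the lines over the other 10 is therefore shifted toward G34R by construction. The list itself was chosen with earlier results of these data known, so nothing is read from either contrast. Both comparisons use the same wild-type libraries. Between the lines, 4 of the 10 were higher and 1 was lower in G34W than in G34R, beside 21.5% and 11.8% of all loci tested. With median-ratio scaling 4 were higher and 2 lower.

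LBD41, a regulator switched on by low oxygen, was at 5.33, 6.39 and 5.62 TPM in wild type, 7.36, 8.88 and 8.04 TPM in G34R and 41.5, 37.0 and 40.4 TPM in G34W. It rose by 2.59 ± 0.10 (log2 change ± SE, limma, adjusted p = 2.38e-12) in G34W and by 0.42 ± 0.10 (adjusted p = 0.00167) in G34R. HB1, a haemoglobin, rose by 1.83 ± 0.14 (limma, adjusted p = 1.61e-08) in G34W and by 0.87 ± 0.14 (adjusted p = 8.23e-05) in G34R. PCO1, an oxygen-sensing cysteine oxidase, rose by 1.64 ± 0.19 (limma, adjusted p = 1.99e-06) in G34W and by 0.59 ± 0.19 (adjusted p = 0.0167) in G34R, but in G34R it no longer passed when G34R replicate 1 was left out (adjusted p = 0.0964) or wild-type replicate 3 (adjusted p = 0.0541), nor with quantile normalization (0.37, adjusted p = 0.133). All of LBD41, HB1 and PCO1 were higher in G34W than in G34R, by 2.16 ± 0.10, 0.96 ± 0.14 and 1.05 ± 0.19 (limma, adjusted p = 1.17e-10, 6.93e-05 and 0.000501). ADH1, the alcohol dehydrogenase of fermentation, rose by 1.06 ± 0.18 in G34W (limma, adjusted p = 8.51e-05) and by 0.70 ± 0.18 in G34R (adjusted p = 0.00327), and the difference between the lines did not pass (0.36 ± 0.18, adjusted p = 0.133). SUS1, a sucrose synthase, rose by 0.77 ± 0.12 in G34R (limma, adjusted p = 5.19e-05). It was lower in G34W than in G34R (-0.47 ± 0.12, limma, adjusted p = 0.00661). In G34W it was 0.30 ± 0.12 above wild type (limma, adjusted p = 0.0432), a call that did not hold under several alternatives. It was lost with a pseudocount of 5 (adjusted p = 0.0533), without the filter on low values (adjusted p = 0.0655), with median-ratio scaling (0.11, adjusted p = 0.455), with quantile normalization (0.04, adjusted p = 0.774), with the replicate block (adjusted p = 0.0556) and without wild-type replicate 1 or 3 or G34W replicate 1 or 3 (adjusted p = 0.0713 to 0.165).

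**Figure D3:**
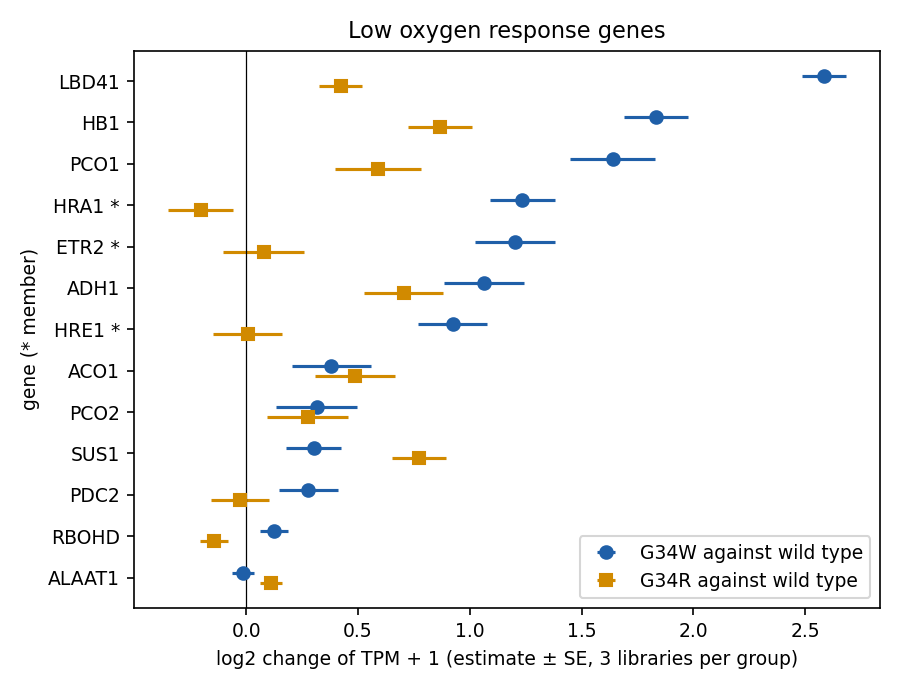
Log2 change of TPM + 1 against wild type (estimate ± SE, 3 libraries per group, limma) of the 13 tested low oxygen response genes in G34W (blue circles) and G34R (orange squares); asterisks mark the members HRA1, HRE1 and ETR2. The rule placed the 3 members near 0 in G34R, and of the other genes LBD41 lies highest in G34W, at 2.59, and HB1 highest in G34R, at 0.87.

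The largest ratio among members of defence was that of FLS2, the receptor kinase that binds bacterial flagellin and starts pattern-triggered immunity. FLS2 lies on the plus strand at chr5:18791575-18795908 in TAIR10.1. It was at 0.63, 0.84 and 0.60 TPM in wild type, 0.45, 0.92 and 0.89 TPM in G34R and 4.19, 5.04 and 4.51 TPM in G34W. The G34W libraries, with 121 to 137 reads each, lay apart from the 6 others, which had 14 to 27 reads each and overlapped. Its ratio was 6.65 (5.70 with median-ratio scaling), and with a mean of 2.01 TPM over the 9 libraries it was the member nearest to the lower limit on level. FLS2 overlaps AT5G46340 on the opposite strand, so its reads could be shared. The 300 bases before its start (TAIR10.1, chr5:18791275-18791574, plus strand) are shown for comparison with the other members of high ratio. Those bases hold no match to any of the motifs searched here, so no letter is in capitals. A W-box core lies farther out, 440 bases before the start. Of the W-box only the form TTGACC was searched.

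FLS2: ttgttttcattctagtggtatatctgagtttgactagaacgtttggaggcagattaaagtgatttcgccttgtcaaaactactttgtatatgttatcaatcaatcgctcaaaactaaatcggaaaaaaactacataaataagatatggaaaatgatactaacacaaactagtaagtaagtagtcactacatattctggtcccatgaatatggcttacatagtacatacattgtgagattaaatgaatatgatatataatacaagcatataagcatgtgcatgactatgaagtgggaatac

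The 7 other members with roles in defence or as receptors had ratios of 1.81 to 2.57. IGMT2, a methyltransferase of indole glucosinolates, was at 0.78, 2.01 and 1.58 TPM in wild type, 1.198, 1.70 and 1.54 TPM in G34R and 4.10, 3.59 and 3.53 TPM in G34W, but near-identical copies lie beside it and its reads are uncertain. AT1G63860, a gene of the TIR-NBS-LRR class of disease resistance proteins, was at 4.03 to 4.83, 3.09 to 6.04 and 9.26 to 9.70 TPM. RLP12, a receptor-like protein, had the lowest G34R ratio of all members, 0.80. RING1, a ubiquitin ligase linked to cell death, PDLP8, a plasmodesmal protein, and the lectin-domain genes AT1G11330 and AT5G18470 completed the group. On a list of 16 genes of salicylic acid and defence, which holds none of these members, 4 of 9 tested genes rose and 3 fell in G34W against wild type, beside 44.8% and 13.1% of all loci tested, and the median log2 change was 0.03 against 0.21. In G34R 3 rose and 5 fell, beside 34.6% and 16.5% of all loci, and the median was -0.27 against 0.10. With median-ratio scaling 2 rose and 4 fell in G34W and 1 rose and 5 fell in G34R, without the filter on low values 8 rose in G34W, and there 2 rose and 3 fell without wild-type replicate 3, G34W replicate 2 or G34W replicate 3. WRKY70, a regulator of that response, fell by 2.04 ± 0.12 (limma, adjusted p = 4.64e-10) in G34W and fell by 2.69 ± 0.12 (adjusted p = 1.25e-11) in G34R.

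Of the 8 members that act on the cell wall or on sugars, XYL4 had the highest level in G34W. XYL4, a beta-xylosidase that trims xylan, was at 32.2, 33.9 and 31.5 TPM in wild type, 42.4, 37.5 and 39.6 TPM in G34R and 118, 123 and 114 TPM in G34W. The 3 groups did not overlap, with G34R slightly above wild type (ratio 1.23) and G34W far above both (ratio 3.64). PMT6, a transporter of polyols and monosaccharides, was at 8.84, 6.95 and 6.56 TPM in wild type, 6.998, 6.28 and 7.98 TPM in G34R and 27.7, 24.5 and 22.8 TPM in G34W. Here wild type and G34R overlapped and the ratio was 3.35. CEL2, a cellulase, FLA10, a fasciclin-like arabinogalactan protein, JP630, a BURP-domain protein, E13L3, a glucanase-like protein, FRUCT5, an invertase, and AT1G14890, an inhibitor of the invertase and pectin methylesterase type, had ratios of 1.86 to 2.15. AT1G14890, which was above XYL4 in wild type and G34R by group mean (37.6 and 42.1 TPM against 32.5 and 39.9 TPM), was at 35.9 to 39.0 TPM in wild type, 38.0 to 45.6 TPM in G34R and 67.2 to 73.3 TPM in G34W.

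Lipid-related members were 4. AT5G55450, a small protein of the lipid-transfer family at chr5:22467337-22468306 on the plus strand of TAIR10.1, had the second highest ratio of all members. It was at 2.98, 3.06 and 2.52 TPM in wild type, 3.19, 2.59 and 2.76 TPM in G34R and 19.5, 22.5 and 20.01 TPM in G34W. Wild type and G34R overlapped, with 16 to 22 reads a library, and the G34W libraries lay well above them, with 126 to 137 reads. Its ratio was 7.25 (6.21 with median-ratio scaling), and AT5G08275 overlaps it on the opposite strand. The 300 bases before its start (TAIR10.1, chr5:22467037-22467336, plus strand) are shown beside those of the other 3 members with ratios over 6, and capitals mark a telo-box, AAACCCTA, read on the opposite strand.

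AT5G55450: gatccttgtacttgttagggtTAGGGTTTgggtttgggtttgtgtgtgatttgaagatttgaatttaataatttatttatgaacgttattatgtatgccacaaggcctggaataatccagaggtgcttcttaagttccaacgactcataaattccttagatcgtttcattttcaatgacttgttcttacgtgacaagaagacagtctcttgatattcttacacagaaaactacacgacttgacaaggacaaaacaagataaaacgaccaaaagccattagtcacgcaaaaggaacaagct

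LACS1, an acyl-CoA synthetase needed for cuticular wax and cutin, was at 21.8, 18.7 and 17.9 TPM in wild type, 18.4, 19.2 and 20.5 TPM in G34R and 37.6, 38.4 and 37.9 TPM in G34W. Its ratio was 1.95, and 1.67 with median-ratio scaling, under the 1.8 of the rule. AT1G62500, another protein of the lipid-transfer family, and PLA2-ALPHA, a secreted phospholipase, had ratios of 2.23 and 2.24, with all G34W libraries above the 6 others.

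**Figure D4:**
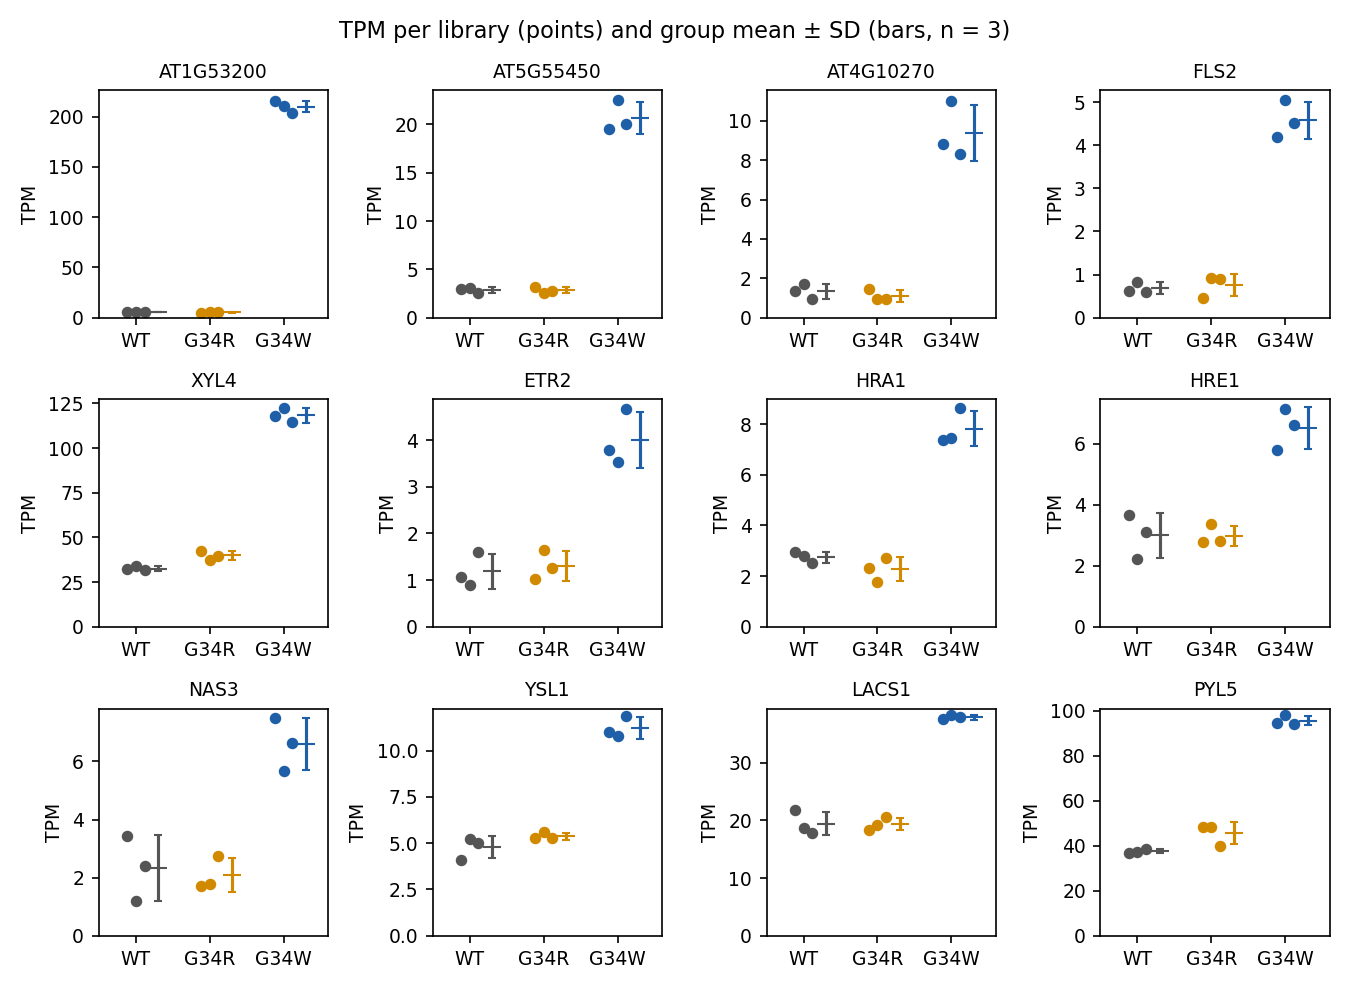
TPM in each library (points) with the group mean ± SD (n = 3) of 12 members in wild type (grey), G34R (orange) and G34W (blue), each panel on its own linear axis from 0. In every panel the 3 G34W points lie above the 6 others.

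Among 4 members of hormone response, PYL5 was the most strongly expressed. PYL5, a receptor of abscisic acid, was at 36.8, 37.4 and 38.4 TPM in wild type, 48.2, 48.5 and 40.0 TPM in G34R and 94.7, 97.9 and 94.1 TPM in G34W. The 3 groups did not overlap, and the ratios were 2.55 in G34W and 1.21 in G34R. PYL6, a receptor of the same family, missed the rule on the G34R side, with means of 2.09, 1.60 and 6.43 TPM in wild type, G34R and G34W and ratios of 3.07 and 0.77. AT5G44260, a tandem zinc finger protein, was at 25.0 to 27.4 TPM in wild type, 23.0 to 29.2 TPM in G34R and 49.2 to 52.1 TPM in G34W. CRF4, a cytokinin response factor, and EEL, a bZIP factor of seed maturation, had ratios of 1.90 and 1.96. On a list of 10 cold and drought genes, which holds no member, none of 7 tested genes rose (1 when G34R replicate 1 was left out) and 5 fell in G34W, beside 44.8% and 13.1% of all loci tested. In G34R 4 of the 7 rose and 3 fell, beside 34.6% and 16.5%, and 1 of the 3, COR15A, no longer passed without wild-type replicate 1 or 2 or G34R replicate 2 or 3 (limma, adjusted p = 0.0706 to 0.127). The median log2 changes of the list were -0.71 in G34W and 0.33 in G34R.

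Metal handling was represented by NAS3, YSL1 and HCC2. NAS3 makes nicotianamine, which binds iron, copper and zinc, and YSL1 carries the metal complexes into cells. NAS3 was at 3.43, 1.18 and 2.39 TPM in wild type, 1.71, 1.79 and 2.75 TPM in G34R and 7.48, 5.68 and 6.65 TPM in G34W. YSL1 was at 4.11, 5.22 and 5.02 TPM in wild type, 5.25, 5.60 and 5.26 TPM in G34R and 11.01, 10.8 and 11.9 TPM in G34W. For NAS3 wild type and G34R overlapped widely, for YSL1 every G34R library was slightly above the wild-type ones, and in both genes the G34W libraries lay apart at ratios of 2.83 and 2.35. HCC2, a mitochondrial protein related to copper chaperones, had a ratio of 1.87. The iron deficiency list of 8 genes, which holds no member, went another way: 3 rose and 3 fell in G34W against wild type, 7 rose and none fell in G34R, and all 8 were lower in G34W than in G34R (limma; 11.8% of all loci tested were called lower). The shares of all loci that rose and fell were 44.8% and 13.1% in G34W and 34.6% and 16.5% in G34R. IRT1, the root iron importer, was at 22.4 to 24.3 TPM in wild type, 121 to 131 TPM in G34R and 57.1 to 61.3 TPM in G34W.

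Developmental regulators numbered 5. RL3, a small MYB protein of the RADIALIS-like family, was at 1.96, 2.13 and 0.83 TPM in wild type, 1.34, 2.003 and 2.72 TPM in G34R and 3.87, 4.22 and 4.36 TPM in G34W, a ratio of 2.53. ABS2, a B3 factor that shapes leaves, MYB17, a factor of early inflorescences, and AT1G59930, of the MADS-box family, had ratios of 2.04, 1.83 and 2.24, with all G34W libraries above the 6 others. NF-YC13, a nuclear factor Y subunit, was at 2.23, 1.15 and 2.83 TPM in wild type, 2.45, 2.91 and 1.72 TPM in G34R and 4.87, 5.36 and 1.42 TPM in G34W. Its replicate 3 of G34W lay within the wild-type range, so the groups overlapped.

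The 39 members placed in no role group, AT4G10270 among them, had ratios of 1.802 to 6.98. AT1G15125, a methyltransferase family protein, was at 3.40, 1.998 and 2.40 TPM in wild type, 2.90, 1.78 and 1.98 TPM in G34R and 9.98, 10.5 and 10.9 TPM in G34W, a ratio of 4.03. AT1G24530, a WD40 repeat protein, was at 6.28 to 7.58 TPM in wild type, 4.90 to 6.23 TPM in G34R and 22.3 to 23.6 TPM in G34W, a ratio of 3.33. Here G34R lay just below wild type and G34W far above. AT1G43605 and AT4G12870, a GILT reductase family protein, had ratios of 3.34 and 3.10, UGT71C2, a glucosyltransferase, 2.37, and AT5G49560, a putative methyltransferase, 2.35. Among strongly expressed members, MLP423, of the major latex protein family, was at 26.8 to 31.4, 29.1 to 31.4 and 58.6 to 60.02 TPM in wild type, G34R and G34W, AT1G01300, an aspartyl protease family protein, at 25.1 to 26.5, 26.4 to 28.5 and 48.5 to 51.5 TPM, and AT1G02110 at 23.0 to 25.2, 23.5 to 25.8 and 42.4 to 45.9 TPM.

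ATCG00020 and ATCG00490, both of the chloroplast genome, met the rule through 1 library. ATCG00020 was at 36.9, 36.5 and 33.03 TPM in wild type, 48.8, 32.5 and 31.2 TPM in G34R and 28.8, 173 and 24.2 TPM in G34W. ATCG00490 was at 15.3, 15.9 and 12.8 TPM in wild type, 22.5, 13.8 and 13.9 TPM in G34R and 14.6, 51.4 and 13.5 TPM in G34W. In both loci G34W replicate 2 was high and the other G34W libraries lay within or below the wild-type range. Without that library the ratios of G34W to wild type were 0.75 and 0.96, in place of 2.12 and 1.804, so neither was raised.

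Over all 83 members, 77 had every G34W library above the 6 others, against 20.9% of all loci with a mean of at least 2 TPM, and 77 had every G34W library above the wild-type ones, against 51.3%. The rule itself raises these counts. The 6 with overlap were ATCG00020, ATCG00490, NF-YC13, AT3G29631, AT3G29173 and AT3G09310. AT3G29631, annotated as a nuclease, varied widely, at 1.08, 1.11 and 2.38 TPM in wild type, 0.31, 0.99 and 2.98 TPM in G34R and 0.67, 6.76 and 3.07 TPM in G34W. Wild type and G34R did not overlap in 11 members, among them XYL4, PYL5 and YSL1, against 57.6% of all loci. The limma fit called 79 members higher in G34W than in wild type (44.8% of all loci tested), 3 higher in G34R than in wild type (34.6%) and 77 higher in G34W than in G34R (21.5%). These counts follow from the rule, which used the same libraries, and nothing is read from them.

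**Figure D5:**
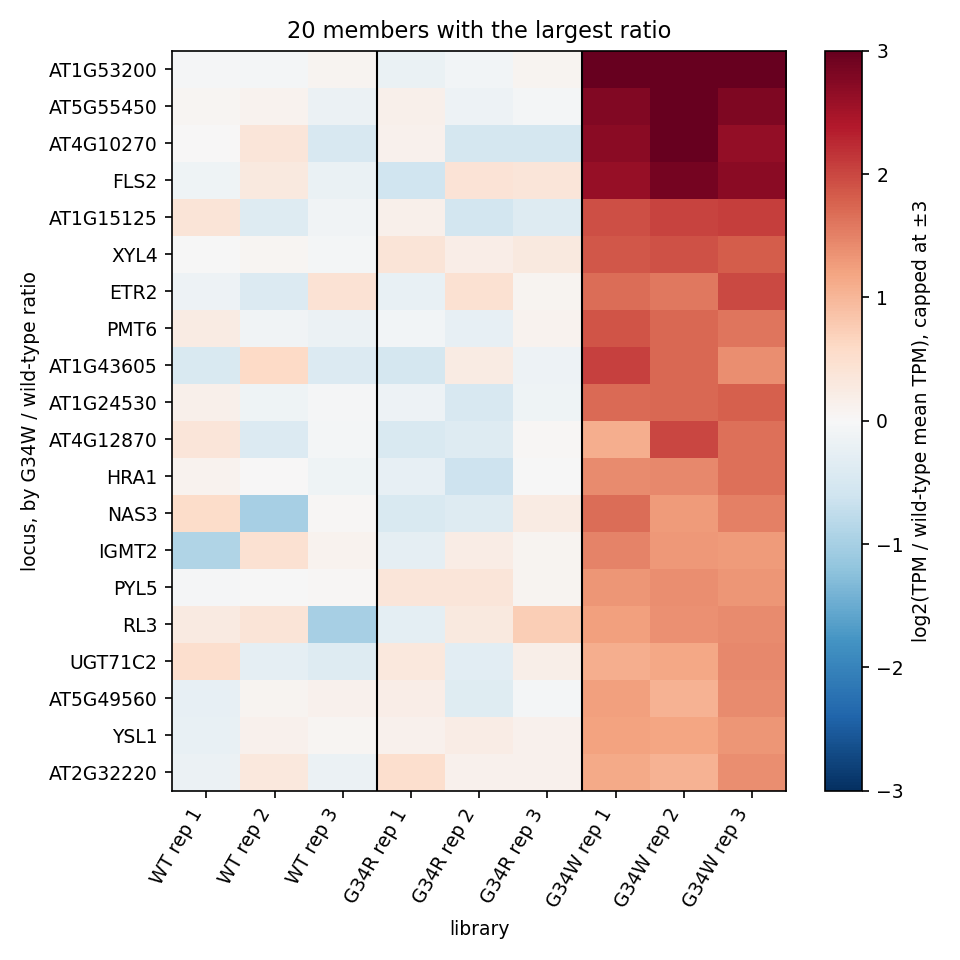
Log2 of TPM over the wild-type mean TPM, capped at ±3, in each of the 9 libraries for the 20 members with the highest ratio among those whose G34W libraries lie above the 6 others. The G34W columns are red throughout, from AT1G53200 with a ratio of 37.9 down to AT2G32220 with 2.29. Wild-type and G34R columns are paler in most rows, but single libraries lie well off the wild-type mean. Examples are NAS3 in wild-type replicate 2 (1.18 TPM, mean 2.33 TPM) and RL3 in wild-type replicate 3 (0.83 TPM, mean 1.64 TPM).

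The members differed widely in size of change and in level. The ratio of G34W to wild type was at least 3 in 11 members, 2 to 3 in 29 and under 2 in 43. The G34W mean was under 10 TPM in 50 members and over 50 TPM in 9, and the median levels in wild type, G34R and G34W were 3.59, 3.72 and 7.76 TPM, against a wild-type median of 13.98 TPM over all loci. Most members were thus weakly expressed, and the 3 wild-type libraries together held under 100 reads for 31 of the 81 members with recovered reads. The members' median coefficient of variation between replicates was 13.3% in wild type, 13.0% in G34R and 9.38% in G34W, where their levels were higher. The highest G34W value fell in replicate 1 for 24 members, in replicate 2 for 36 and in replicate 3 for 23. In G34R 59 members lay above the wild-type mean and 24 below it.

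The limits of the rule cut through a continuous range. Just inside the limit of 1.8 on G34W lay RPSAb at 1.805, ATCG00490 at 1.804 and CYCH;1, a cyclin of the kinase that activates other cyclin-dependent kinases, at 1.802. Just outside it lay AT2G39400 at 1.797, DRS1 at 1.795 and AT2G28600 at 1.789. On the G34R side AT1G69890, AT3G26960 and AT5G22799 lay just over the upper bound, at 1.251, 1.254 and 1.258, and CRK29, UMAMIT17 and PYL6 under the lower bound, at 0.785, 0.783 and 0.767.

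Some features that the rule did not name can be set beside those of all loci with a mean of at least 2 TPM, as a description without a test. Gene span enters TPM and so the limit on level. The members were also more weakly expressed than these loci, with wild-type medians of 3.59 and 13.98 TPM. Span, and exon number with it, may therefore not be independent of the rule. The members' genes were shorter, with a median span of 1935 bases against 2437, and had a median of 3 exons against 5. Of the 81 nuclear members, 26 (32.1%) had a single exon, against 13.4% of all loci. Another gene overlapped 26 members (32.1%, against 31.3% of all loci), on the opposite strand in 22. Chromosome 1 held 28 members (34.6%, against 26.2%), and chromosomes 2, 3, 4 and 5 held 8, 14, 15 and 16. Only JP630 and AT1G23790 lay within 5 loci of another member. Of 108 loci adjacent to members, 10 reached 1.8 in G34W (9.26%, against 9.28% of all loci), with a median ratio of 1.23. Members thus seldom lay within 5 loci of each other, and grouping over longer stretches was not tested.

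Short motifs were searched in the 500 bases before each start, on both strands, and were chosen after the values were seen. The W-box TTGACC was found in 16 of 81 members (19.8%) and in 20.5% of all 17065 promoters, and the G-box CACGTG in 9 (11.1%) and 10.4%. The GCC-box GCCGCC, bound by ethylene response factors, was found in 5 (6.17%) and 4.26%, and the evening element AAAATATCT in 6 (7.41%) and 4.42%. The site II element TGGGCC, frequent before ribosomal protein genes, was found in 12 (14.8%) and 21.3%, and the telo-box AAACCCTA in 2 (2.47%) and 6.37%. None of these letters marks a bound site, and none of the motifs searched was shared by most members.

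Whole seedlings mix organs, and in such samples fewer cells of a type and less RNA per cell cannot be told apart. Markers of root cell types moved in both lines. All 6 root hair markers and all 5 endodermis markers rose in G34W and in G34R against wild type (limma). Their summed level was 13.4 to 15.6 TPM in wild type, 50.1 to 60.9 TPM in G34R and 37.5 to 44.1 TPM in G34W for root hairs, and 37.1 to 41.8, 91.3 to 112 and 82.7 to 85.9 TPM for the endodermis. Of 9 leaf photosynthesis markers 8 fell and 1 rose in G34W and 6 fell and 1 rose in G34R. Of all loci tested, 44.8% rose and 13.1% fell in G34W, and 34.6% rose and 16.5% fell in G34R. With median-ratio scaling 9 fell in G34W and 8 in G34R and none rose, and leaving out wild-type replicate 1 also removed the rise in both lines, as did wild-type replicate 2, G34W replicate 1 or G34W replicate 2 in G34W and wild-type replicate 3, G34R replicate 1 or G34W replicate 2 in G34R. With quantile normalization the fall of LHCA1 was lost in G34W (-0.008, limma, adjusted p = 0.695) and in G34R (-0.002, adjusted p = 0.924). RCA in G34R then stood at 0.016 (limma, adjusted p = 0.688). The sum of the 9 leaf markers was 85428 to 85945 TPM in wild type, 75621 to 80024 TPM in G34R and 74078 to 75242 TPM in G34W. Floral organ markers summed to 2.23 to 2.77, 2.42 to 3.43 and 3.22 to 3.68 TPM. The root hair and endodermis sums were higher in G34R than in G34W. The rule itself held the members near the wild-type level in G34R, so nothing is read from this. The part of organ make-up in the members' levels was not tested.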

How the data were processed

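RNA of whole seedlings, taken up with Takara's MiniBEST plant kit, went into NEBNext Ultra RNA libraries, per the labels' protocols. fastp 0.20.1, HISAT2 2.1.10, DESeq2 1.26.0 and TAIR10 were used, per the submitters' processing notes. Which program counted reads, and whether by strand, is not given in the sources used here. Overlapping genes and close copies can therefore share reads. The table deposited by the authors gives TPM for 27655 loci. Its values were whole reads within 0.01 once multiplied by the RefSeq gene span, introns included, for 23088 of 23093 loci above 0 with a span (99.98%), so levels are per span, introns included. In all, 4420 loci were at 0 in every library.

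Groups and replicate numbers came from the sample titles. Names, spans and positions came from the RefSeq annotation of TAIR10.1, matched by locus ID for 27445 loci (210 had no match, ATCG00020 and ATCG00490 among them), and promoters from its genome sequence. In R 4.3.3, limma 3.58.1 was fitted to log2(TPM + 1) of loci whose mean reached 1 TPM, in 1 model over the 3 groups with a trend, two-sided and adjusted by Benjamini-Hochberg at 0.05. Fold changes on that scale understate those of weakly expressed genes. Ratios are of mean TPM without a pseudocount. The fit was checked on simulated data. Alternatives were other pseudocounts, filters, scalings and thresholds, group medians, a replicate block and each library left out.

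Named were the 20 members with the highest ratio among those whose G34W libraries lay above the 6 others, the 10 with the highest G34W mean, members on a gene list or within 5 loci of another, those at the limits of the rule, the H3.3 genes and up to 4 genes a list by adjusted p; members named beyond these, and PYL6's values in full, were chosen after their values were seen. The members and the 15 gene lists were chosen with earlier results of these data known. Chi-square per degree of freedom between replicates was 1.75 to 2.02 in wild type and G34W and 2.55 to 5.47 in G34R. No library was thus a copy of another, but these values cannot tell technical repeats from separate samples. Tables were handled with pandas 2.3.3 in Python 3.11.15.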

Additional observations from a re-analysis of the deposited data

How the results depend on the processing

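Taking group medians gave 109 loci, of which 61 were members, and leaving out a single library gave 77 to 102. The rule gave 43 loci with median-ratio scaling, of which 26 were members, 42 with a mean of at least 5 TPM, 225 without a filter on the mean, 475 at a G34W ratio of at least 1.5 and 40 at a ratio of at least 2; fewer or more loci follow from the filter and threshold by construction. ATCG00020 fell under the wild-type level with group medians (0.789) and without G34W replicate 2 (0.747), as did ATCG00490 (0.955 and 0.956); leaving out libraries gave ranges of 0.747 to 2.84 and 0.956 to 2.25. Over the 33 members named by the rule of naming, 297 of 363 ratios under alternatives moved by less than the spread between replicates, 62 by more and these 4 turned direction. The 297 include the settings that left out a G34R library. Those cannot change a ratio of G34W to wild type, so these values stayed by construction. With median-ratio scaling and with quantile normalization, loci higher in G34W than in wild type numbered 4500 and 4617 in place of 8300, loci lower 4509 and 4224 in place of 2427, and loci lower in G34R 4911 and 4961 in place of 3060; loci higher in G34W than in G34R numbered 2492 with median-ratio scaling in place of 3982. Leaving out a library gave 7408 to 8500 higher and 2199 to 2508 lower in G34W, 5738 to 6330 and 2651 to 3388 in G34R, and 3110 to 4436 and 1769 to 2190 between the lines. Of 1860 values of 62 list genes, 1794 kept direction and call, 42 lost the call, 21 gained it and 3 turned: COR47 in G34W with median-ratio scaling (-0.14, limma adjusted p = 0.00337), TEM1 in G34W with it (-0.0052, adjusted p = 0.935) and RCA in G34R with quantile normalization (0.016, adjusted p = 0.688); the cause was not tested. Samples of the same number did not deviate together (correlations of -0.023 to 0.041), so the numbers do not pair them; with the replicate block, 8314 loci were higher and 2433 lower in G34W, 6447 and 3122 in G34R, and 4028 and 2210 between the lines, and no count moved by over 1.5 times. Members with few reads, such as AT4G10270 with 12 in wild type in all, have ratios of low precision.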

Other observations

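The lists that hold no member and are not described above moved as follows, by limma on log2(TPM + 1) at an adjusted p of 0.05, in G34W and in G34R against the same wild-type libraries. Of 9 tested genes of jasmonate and ethylene defence, 6 rose and 2 fell in G34W and 6 rose and 1 fell in G34R. Of 10 floral repressors, 1 rose and 5 fell in G34W and 1 rose and 6 fell in G34R, with 8 lower and none higher in G34W after median-ratio scaling, and of 7 floral promoters 3 and 2 rose and none fell. Of 7 genes of the evening clock and photoperiod, 3 rose and 3 fell in each line. Of 4 sugar starvation genes, 1 rose and 3 fell in G34W and all 4 fell in G34R. Of 7 phosphate starvation genes, 3 fell in G34W (5 with median-ratio scaling, and 1 rose without wild-type replicate 2 or G34W replicate 2) and 5 in G34R, where none rose. Of 3 Polycomb-silenced developmental genes, 1 fell in each line (2 in G34W with quantile normalization). The 1 tested floral organ marker rose in G34W and did not pass in G34R, and the rise was lost with median-ratio scaling, with quantile normalization and without wild-type replicate 2. Over all 18544 loci tested, 44.8% rose and 13.1% fell in G34W, and 34.6% rose and 16.5% fell in G34R.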
